A study of Caenorhabditis elegans with 11 samples.

Results

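Stress-response genes of Caenorhabditis elegans that encode bZIP transcription factors, 10 in all, are described here: zip-1, zip-2, zip-4, zip-5, zip-8, zip-10, zip-11, cebp-1, cebp-2 and atf-7. A probe set, the group of short oligonucleotides that reports 1 transcript on the array, was taken as a member where the platform annotation gave it 1 of these symbols and no other gene. This chose 13 of the 22548 probe sets left after the manufacturer's controls, and they covered 9 of the 10 genes. zip-4 and zip-8 had 2 probe sets each, atf-7 had 3, and cebp-2 is not analysed here. The choice of genes used no measured value of the arrays as a rule, though earlier results of these data were known when it was made. The series asked which transcript changes under high oxygen depend on SKN-1, itself an unusual bZIP-related factor that drives detoxification genes.

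The groups were skn-1 RNAi with oxygen (n = 3 arrays), oxygen (n = 4) and control (n = 4), each array carrying RNA of whole hermaphrodites that were 3 days old. Worms of the oxygen groups had spent 6 hours at 20°C in 99% oxygen under 40 PSI after growth at 25°C, and the control worms were unstressed. The effects of pressure, cooling and handling cannot be told apart from that of oxygen. The labels name the strain TJ1090 while the design text names TJ1060 and calls the adults sterile, and no allele is given for either. How RNA interference (RNAi) against skn-1 was delivered is not given in the sources used here. RNAi without oxygen, and control RNAi food, are not analysed here. In RNA of whole animals, fewer cells of a type and less RNA per cell cannot be told apart.

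A bZIP protein holds a basic region that contacts DNA and a leucine zipper through which it pairs with itself or with another bZIP protein. In C. elegans several of them are end points of surveillance pathways. ZIP-2 turns on irg-1 and other infection response genes when translation is blocked by a bacterial toxin. ZIP-1 acts in the intracellular pathogen response, a programme triggered by microsporidia, virus and proteasome block. ATF-7 is the nuclear target of the p38 kinase PMK-1 in intestinal immunity. CEBP-1 is made in injured neurons under control of the kinases DLK-1 and PMK-3, and ZIP-10 promotes death of worms after cold shock.

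The arrays fell into sets that no label states: control 1 and 2 and oxygen 1 and 2 (set 1), and the other 7 arrays, among them every skn-1 RNAi array (set 2). Poly-A spike-in controls had a median signal of 96.7 to 167 on set 1 and 2.6 to 15.4 on set 2. The mean signal of an array, with its extremes trimmed off, was 250 on every set 2 array and 207 to 216 on set 1. The sets thus stood at unequal scale, and the part of this in the differences between sets was not tested. Allowing for group, the sets differed at 44.4% of the 15393 probe sets tested, and 5669 of these 6827 had higher signal in set 2. Among the 13 bZIP probe sets 7 differed, 6 of them with higher signal in set 2. Each comparison is therefore given also with the set as a block (the blocked fit) and, where both groups had arrays in a set, within it. skn-1 itself was read by 3 probe sets, and none differed between skn-1 RNAi and oxygen worms past the threshold. At 194169_s_at, skn-1 averaged 347 ± 102 in skn-1 RNAi worms, 510 ± 118 in oxygen worms and 535 ± 174 in control worms, and at 174799_at 311 ± 65.4 in skn-1 RNAi worms, 415 ± 168 in oxygen worms and 461 ± 233 in control worms. At 188421_at the order was turned, with 333 ± 71.7 in skn-1 RNAi worms, 271 ± 202 in oxygen worms and 271 ± 215 in control worms. The skn-1 log2 differences between skn-1 RNAi and oxygen were −0.58 ± 0.31, −0.35 ± 0.45 and 0.65 ± 0.81 (SE; limma, adjusted p = 0.547, 0.769 and 0.759), and −0.76, −0.92 and −0.48 in the blocked fit (0.318, 0.11 and 0.463). The signal of gst-4, a glutathione S-transferase under SKN-1 control, was 1240 ± 516 in skn-1 RNAi worms, 4528 ± 522 in oxygen worms and 365 ± 283 in control worms. Between skn-1 RNAi and oxygen gst-4 did not pass the test either (log2 −1.94 ± 0.50, limma, adjusted p = 0.259). In the blocked fit the gst-4 difference was −2.03 (adjusted p = 0.164).

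Oxygen against control asked how these genes respond to hyperbaric oxygen. zip-2 rose 4.95-fold and zip-10 rose 3.33-fold, and no bZIP probe set fell. zip-1 and zip-5 also had every oxygen array above every control array. At the deposited scaling both missed the threshold by a small margin. After median centring their adjusted p was 0.303 and 0.368 (limma), and after quantile normalization it was 0.339 and 0.173. zip-8 had higher means in oxygen with overlapping groups, while atf-7, zip-4, zip-11 and cebp-1 did not pass the test in either direction. The 2 called bZIP probe sets were 15.4% of the 13, where 3.29% of all tested probe sets were called higher and 0.539% lower. Groups that did not overlap, with oxygen on top, were found in 4 of the 13, against 6.60% of all tested probe sets. With control on top they were found in 0 of the 13, against 3.75%. In the blocked fit zip-1 and zip-5 joined zip-2 and zip-10, so that 4 of 13 (30.8%) were called higher, against 7.39% of all. In that fit 0 were called lower, against 1.86%. To be tested, a probe set had to reach the 40th percentile of its array on at least 3 arrays. zip-1 did so on 6 arrays, all of them oxygen or skn-1 RNAi arrays. It was tested only through the groups where it was high, so its part in both counts of 4 is no added support. With the block and 1 array left out, a combination chosen after seeing the data, zip-1 was called in 3 of 11 fits and zip-5 in 4 of 11, while zip-2 and zip-10 were called in all 11. With the replicate number as a block, zip-1 and 1 zip-8 probe set joined zip-2 and zip-10, against 3.67% of all called higher and 0.604% lower, and zip-5 did not pass (adjusted p = 0.0609). The median log2 change of the 13 was 0.58, and that of all tested probe sets was 0.06.

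**Figure D1:**
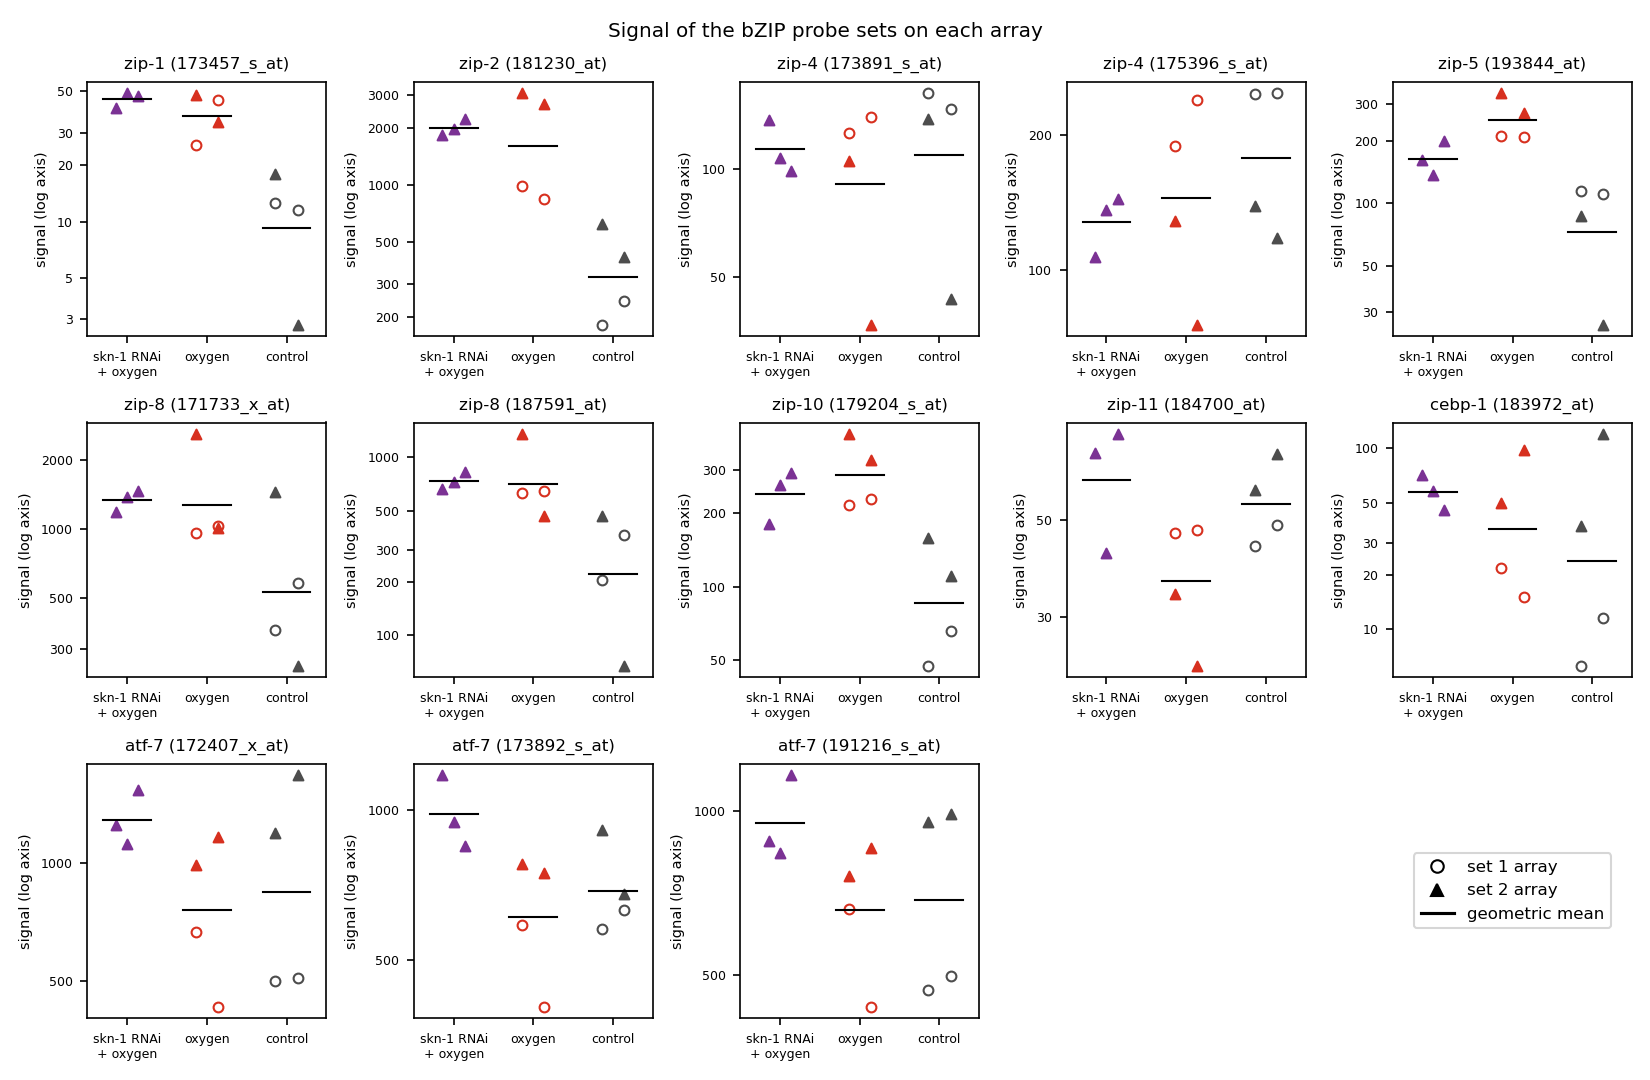
Signal of each bZIP probe set on each array (linear MAS5 signal on a log axis), with skn-1 RNAi with oxygen, oxygen and control from left to right in every panel; open circles are set 1 arrays, triangles are set 2 arrays and lines are geometric means. For zip-1, zip-2, zip-5 and zip-10 all 4 oxygen arrays lie above all 4 control arrays.

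zip-2, the infection response regulator, had signals of 985.3, 844.6, 3064.5 and 2678 on oxygen arrays 1 to 4. On control arrays 1 to 4 they were 182, 243.8, 618.8 and 414.2. Every oxygen array was above every control array, and in both groups the set 2 arrays (3 and 4) were above the set 1 arrays. The mean was 1893 ± 1142 in oxygen worms and 365 ± 196 in control worms (SD, n = 4 each), and the log2 change was 2.31 ± 0.50 (SE, adjusted p = 0.0305). Within the sets the change was 2.11 in set 1 and 2.5 in set 2. The blocked fit gave a standard error of 0.19 and an adjusted p of 2.00e-04.

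The call of zip-2 without the block rested on most arrays. Its adjusted p was 0.0885 without control 1, 0.0908 without control 2, 0.0501 without control 4, 0.0932 without oxygen 3 and 0.0911 without oxygen 4. It was 0.0535 to 0.0538 when any of the 3 skn-1 RNAi arrays, which enter only the estimate of spread, was left out. The log2 change stayed between 2.00 and 2.62 in these fits. When the block was combined with leaving out 1 array, zip-2 was called in 11 of 11 fits (log2 2.15 to 2.43, adjusted p at most 0.00159).

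zip-10, the factor of cold-induced death, had signals of 215.3, 227.4, 419 and 327 on oxygen arrays 1 to 4. Control arrays 1 to 4 had 47.5, 65.7, 157.5 and 110.5. The groups did not overlap, and again both groups were higher in set 2. Means were 297 ± 95.4 in oxygen worms and 95.3 ± 49.2 in control worms, with a log2 change of 1.74 ± 0.39 (adjusted p = 0.0367). The change was 1.99 in set 1 and 1.49 in set 2, and the blocked fit gave an adjusted p of 0.00182.

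Without the block the call of zip-10 ended when any 1 of 9 arrays was left out. The adjusted p was 0.0895 without control 1, 0.108 without control 2, and 0.0533, 0.0517, 0.116 and 0.1 without oxygen 1, 2, 3 and 4. Without skn-1 RNAi array 1, 2 or 3 it was 0.0535, 0.0628 and 0.0584. As for zip-2, all 11 fits with the set as a block and 1 array left out called zip-10 (log2 1.59 to 1.89, adjusted p at most 0.00901).

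zip-1, the regulator of the intracellular pathogen response, was dim. Its signals were 25.8, 44.9, 47.5 and 34.2 on oxygen arrays 1 to 4, and 12.6, 11.5, 18 and 2.8 on control arrays 1 to 4. All 4 control signals lay under the 40th percentile of their own array, used here as the limit of measurement, as did 1 of the 4 oxygen signals. The measured means were 38.1 ± 10 in oxygen worms and 11.2 ± 6.29 in control worms. With each control array set at its limit, the geometric mean of oxygen (37) was 1.47-fold above that of control. Oxygen 4 entered as measured though under its own limit (34.2 against 53.5), so 1.47 is not a strict lower bound. The fitted log2 change was 2.00 ± 0.50 (adjusted p = 0.059, blocked 0.04, and 0.0389 with the replicate number as a block), and 1.5 in set 1 and 2.51 in set 2. Leaving out 1 array, zip-1 was called in 2 of 11 fits, without control 3 (adjusted p = 0.0384) and without control 4 (log2 1.43, adjusted p = 0.0202), and in the others the adjusted p reached 0.168. In the blocked fits with 1 array left out it ran from 0.00965 to 0.115.

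zip-5 had signals of 211.7, 208.8, 340.5 and 273.5 on oxygen arrays 1 to 4, against 114.7, 111.3, 86.7 and 26 on control arrays 1 to 4. Every oxygen array was above every control array, and control 4 stood lowest. The means were 259 ± 62.2 in oxygen worms and 84.7 ± 41.1 in control worms, a log2 difference of 1.79 ± 0.44 (adjusted p = 0.0557, blocked 0.0338). The size differed between sets, with 0.90 in set 1 and 2.68 in set 2, where control 4 belongs. Leaving out 1 array, zip-5 was called in 1 of 11 fits, the one without control 4 (log2 1.29, adjusted p = 0.0209), and in the others the adjusted p reached 0.165. In the blocked fits with 1 array left out it ran from 0.0138 to 0.101.

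Both zip-8 probe sets had higher means in oxygen worms with wide spread. The first (171733_x_at) had 959, 1037.7, 2608.3 and 1008.8 on oxygen arrays 1 to 4, against 362.8, 584.8, 1461.6 and 253 on control arrays 1 to 4. Control 1, 2 and 4 were below all oxygen arrays, while control 3 was above 3 of them. The second (187591_at) had 626.2, 646.1, 1342.5 and 463.9 in oxygen, against 203.8, 364.4, 465.6 and 67.7 in control, where only control 3 and oxygen 4 met. The log2 differences were 1.27 ± 0.52 (adjusted p = 0.286) and 1.69 ± 0.56 (adjusted p = 0.16). Both probe sets were higher in oxygen in each set, by 1.11 and 1.22 in set 1 and by 1.42 and 2.15 in set 2. Neither passed in the blocked fit (adjusted p = 0.165 and 0.108), and with the replicate number as a block the second did (adjusted p = 0.034). The first, like 172407_x_at of atf-7, carries the manufacturer's suffix for probes that can also bind other transcripts, so its signal may be shared.

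**Figure D2:**
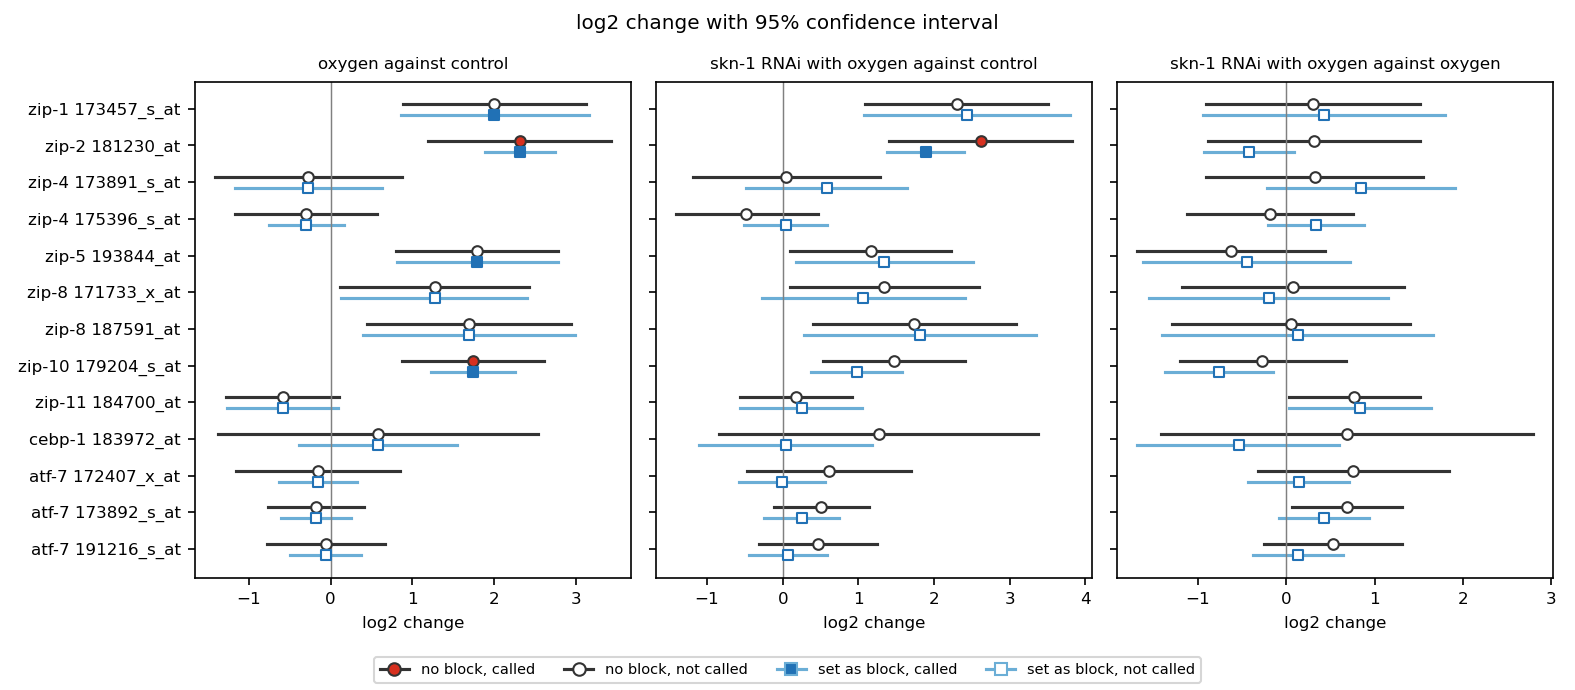
Log2 change of each bZIP probe set with its 95% confidence interval (limma), with oxygen over control on the left, the RNAi worms over control in the middle and over oxygen on the right; circles with dark lines are without and blue squares with the set as a block, and filled symbols passed the threshold. In the left panel the circles of zip-2 and zip-10 are filled, at 2.31 and 1.74, and the squares of zip-1 and zip-5 as well, and no symbol is filled between skn-1 RNAi and oxygen.

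For atf-7 the oxygen and control groups overlapped at each of its 3 probe sets. The signals of 173892_s_at were 587.6, 403.4, 777.8 and 748 on oxygen arrays 1 to 4 and 576.4, 631.4, 911.3 and 679.7 on control arrays 1 to 4. The log2 differences of the 3 probe sets were −0.18 ± 0.26, −0.15 ± 0.45 and −0.06 ± 0.32 (adjusted p = 0.891, 0.957 and 0.982). Their 95% intervals reached at most 0.41, 0.85 and 0.66 upward and −0.76, −1.15 and −0.78 downward, so an increase of the size seen in zip-2 lay outside all 3 intervals. At 2 of the 3 probe sets the sign differed between the 2 sets.

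zip-4 likewise had overlapping groups. Its probe set 175396_s_at had 189.3, 240, 128.8 and 75.3 on oxygen arrays 1 to 4, against 246.7, 248.5, 139.2 and 118 on control arrays 1 to 4. Both groups were higher in set 1 here, the reverse of zip-2 and zip-10. The log2 difference was −0.30 ± 0.39 (adjusted p = 0.869), and that of 173891_s_at was −0.27 ± 0.51 (adjusted p = 0.929).

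zip-11 was the lowest of the 13 in log2 change, −0.58 ± 0.31 (adjusted p = 0.456). Its signals were 46.6, 47.5, 33.8 and 23.2 on oxygen arrays 1 to 4, against 43.6, 48.7, 58.5 and 70.7 on control arrays 1 to 4. The groups met in set 1 (log2 0.03) and were apart in set 2 (log2 −1.20), where both oxygen signals were below the 40th percentile of their arrays.

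cebp-1, the axon injury factor, had the widest interval. Its signals were 21.9, 15, 50.1 and 98.1 on oxygen arrays 1 to 4, against 6.3, 11.5, 37 and 119.7 on control arrays 1 to 4, and in both groups the set 2 arrays were the higher ones. Set 2 exceeded set 1 by a log2 of 2.46 ± 0.43 (adjusted p = 0.00188). The log2 difference between oxygen and control was 0.58 ± 0.88 (adjusted p = 0.894), with 1.09 in set 1 and 0.08 in set 2. Below the 40th percentile were 2 control signals and 1 oxygen signal.

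Across the 2 sets, which share no array, 7 of the 13 probe sets were higher in oxygen in both, 3 were lower in both and 3 had opposite signs. The 7 belonged to zip-1, zip-2, zip-5, zip-8 (both probe sets), zip-10 and cebp-1. The share of all tested probe sets with the same sign in both sets was not computed, and some of the 13 read the same gene. These counts therefore describe the 13 and do not set them apart from other probe sets.

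**Figure D3:**
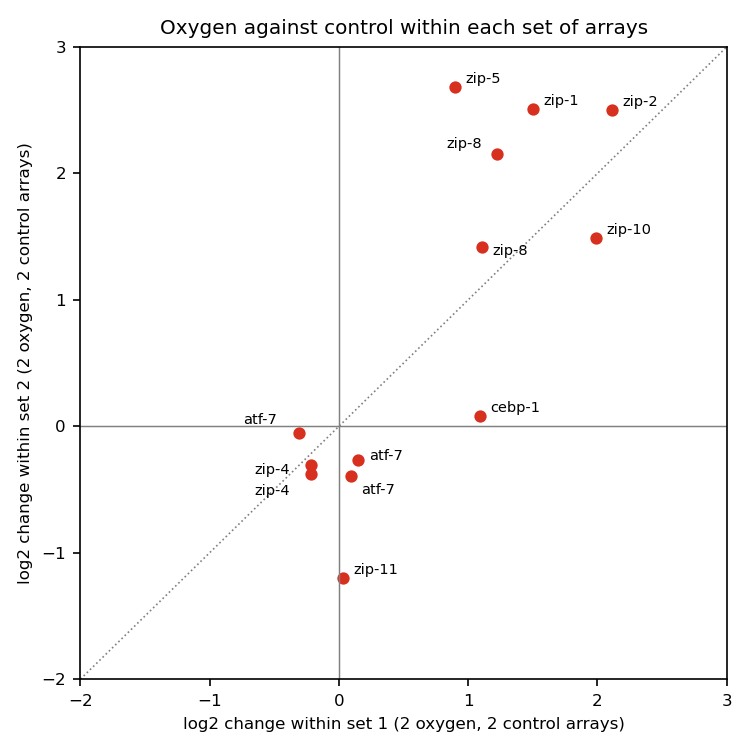
Log2 difference between oxygen and control within set 1 (horizontal axis, 2 arrays a group) and within set 2 (vertical axis, 2 arrays a group) for each bZIP probe set. zip-2 lies at 2.11 and 2.5 and zip-10 at 1.99 and 1.49, while zip-5 lies at 0.90 and 2.68.

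The worms with skn-1 RNAi were set against the oxygen worms to ask which levels under oxygen depend on skn-1. None of the 13 bZIP probe sets passed the test, nor did any in the blocked fit. Without the block limma called 35 of 15393 probe sets, 0.0455% higher and 0.182% lower, and with it 0.182% higher and 0.572% lower. At an unadjusted p under 0.05 there were 1502 in all (9.76%), and 2 among the 13, zip-11 and 1 probe set of atf-7. zip-2 had signals of 1828.8, 1977.9 and 2224.5 on skn-1 RNAi arrays 1 to 3, which lay between the 2 set 1 and the 2 set 2 arrays of the oxygen group.

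The zip-2 difference was 0.31 ± 0.54 on the log2 scale (95% interval −0.89 to 1.51, adjusted p = 0.831). In the blocked fit it turned to −0.42 (−0.93 to 0.09), and within set 2 it was −0.52. zip-10 had 179.7, 259.3 and 289.9 on skn-1 RNAi arrays 1 to 3, and its log2 difference from oxygen was −0.27 ± 0.42 (−1.20 to 0.67, adjusted p = 0.814). All 3 were below both set 2 oxygen arrays, at 419 and 327. The blocked difference was −0.76 (−1.37 to −0.15), and its p adjusted over all probe sets was 0.265.

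zip-5 had 161.2, 137.2 and 200 on skn-1 RNAi arrays 1 to 3, all below the lowest oxygen array (208.8). Its log2 difference was −0.63 ± 0.48 (adjusted p = 0.629), −0.45 in the blocked fit and −0.89 within set 2. The atf-7 probe set 173892_s_at had 1173.3, 946.2 and 847.2 on skn-1 RNAi arrays 1 to 3, all above the highest oxygen array (777.8). Its log2 difference was 0.69 ± 0.28 (adjusted p = 0.485), and 0.43 in the blocked fit. Groups that did not overlap occurred in 12.0% of all tested probe sets with skn-1 RNAi on top and in 5.20% with oxygen on top, and 1 of the 13 bZIP probe sets was of each kind.

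The other 2 atf-7 probe sets overlapped between skn-1 RNAi and oxygen, at log2 0.76 ± 0.49 and 0.53 ± 0.35 (0.14 and 0.13 with the block). zip-11 had 71.3, 42 and 78.7 on skn-1 RNAi arrays 1 to 3, a log2 difference from oxygen of 0.77 ± 0.33 (adjusted p = 0.501). zip-1 had 40.8, 48.8 and 47.3, at 0.30 ± 0.54 (adjusted p = 0.838). For zip-1, 2 of these 3 signals lay inside the range of the oxygen group. The 2 zip-8 probe sets differed by 0.07 ± 0.56 and 0.05 ± 0.60, the 2 zip-4 probe sets by 0.32 ± 0.55 and −0.18 ± 0.42, and cebp-1 by 0.69 ± 0.95 (−0.54 with the block).

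Between skn-1 RNAi with oxygen and control, the combined treatment was compared with unstressed worms, on the control arrays that the oxygen comparison also used. zip-2 rose 6.14-fold, to 2010 ± 200 (SD, n = 3) in skn-1 RNAi worms, against 365 ± 196 (n = 4) in control worms (log2 2.62 ± 0.54, adjusted p = 0.0311). In the blocked fit the log2 change was 1.89 (adjusted p = 0.00328), and within set 2 it was 1.98. The call ended without control 1 (adjusted p = 0.078), control 2 (0.0877) or skn-1 RNAi array 1, 2 or 3 (0.103, 0.116 and 0.12). zip-2 was the 1 bZIP probe set called among 13, against 2.49% of all tested probe sets called higher and 0.851% lower (2.97% and 1.57% with the block).

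The other bZIP genes that were higher under oxygen were also higher here without passing the test. zip-1 averaged 45.6 ± 4.25 in skn-1 RNAi worms, at least 1.8-fold above control (fitted log2 2.3 ± 0.54, adjusted p = 0.0503). zip-10 averaged 243 ± 56.9 in skn-1 RNAi worms and 95.3 ± 49.2 in control worms (log2 1.47 ± 0.42, adjusted p = 0.094). zip-5 averaged 166 ± 31.7 in skn-1 RNAi worms and 84.7 ± 41.1 in control worms (log2 1.16 ± 0.48, adjusted p = 0.208). The zip-8 probe sets had log2 differences of 1.34 ± 0.56 and 1.74 ± 0.60 (adjusted p = 0.215 and 0.153). cebp-1 was at 1.27 ± 0.95 (adjusted p = 0.455). In the blocked fit the log2 differences were 2.43 (zip-1), 0.98 (zip-10), 1.34 (zip-5), 1.06 and 1.82 (zip-8) and 0.04 (cebp-1). Their blocked adjusted p-values were 0.0554, 0.0762, 0.181, 0.334, 0.17 and 0.97. The median log2 change of all tested probe sets was 0.36, and 0.09 in the blocked fit. In 5 of the 13 the groups did not overlap, namely zip-1, zip-2, zip-5, zip-10 and 187591_at of zip-8, against 16.9% of all tested probe sets with skn-1 RNAi on top. None had control on top, against 6.68% of all. zip-1 counts here with the limit given above, as only oxygen and skn-1 RNAi arrays brought it through the filter.

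Genes that work with these factors were followed by lists, each gene represented by its brightest probe set. Only genes that passed the filter were tested. A gene dim in control can pass it through the groups where it is high, so the list shares are no added support. Over all 11661 genes, 3.58% were called higher and 0.660% lower in oxygen, and the median log2 change was 0.05. At an unadjusted p under 0.05 there were 15.4% of genes. Against control, 2.64% were called higher and 0.900% lower in skn-1 RNAi worms. Shares over genes were not computed for the blocked fit. Over all tested probe sets that fit called 7.39% higher and 1.86% lower in oxygen against control. For skn-1 RNAi with oxygen against control it called 2.97% higher and 1.57% lower. Of 8 tested infection response (irg) genes, which include the known target of ZIP-2, 2 rose and 0 fell (median 0.45). irg-1 averaged 893 ± 425 in oxygen worms and 8.43 ± 5.16 in control worms, at least 32.3-fold higher (adjusted p = 1.71e-04). irg-2 was at least 59.7-fold higher. Both were also called higher in skn-1 RNAi worms than in control worms, by at least 14.6-fold and 27.2-fold. Over the 8 irg genes the median difference between skn-1 RNAi and oxygen was −0.88 with 0 called (2 at an unadjusted p under 0.05), and −1.45 in the blocked fit with irg-5 called lower (log2 −2.79, adjusted p = 0.00592). Against control the skn-1 RNAi median was 0.05, and −0.73 in the blocked fit, where irg-5 (log2 −2.37) and irg-7 (adjusted p = 0.0387) were called lower beside irg-1 and irg-2 called higher.

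The list of the intracellular pathogen response, the programme in which ZIP-1 acts, held 32 genes. Of these 25 had a probe set, and only 11 passed the filter and were tested. Of the 11, 3 rose in oxygen and 0 fell (median 1.13). They were skr-3 (log2 2.1 ± 0.36), skr-5 (log2 3.72 ± 0.62) and cul-6 (log2 1.34 ± 0.28), parts of a ubiquitin ligase. skr-5 averaged 181 ± 91.7 in oxygen worms and 15.4 ± 8.47 in control worms. Another member, pals-6, averaged 44.8 ± 29.4 in oxygen worms and 8.05 ± 5.1 in control worms and did not pass (adjusted p = 0.0508). In skn-1 RNAi worms pals-6 averaged 264 ± 83.7, at least 10.1-fold above control (adjusted p = 0.00313).

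In the PMK-1 cascade upstream of ATF-7, 1 of 5 tested genes rose in oxygen (median 0.75). It was tir-1, the adaptor protein at the head of the cascade, with 614 ± 184 in oxygen worms and 184 ± 54.6 in control worms (log2 1.74 ± 0.34, adjusted p = 0.0194). It was also called in skn-1 RNAi worms against control (log2 2.1, adjusted p = 0.0149). Of 9 tested immune effectors downstream of PMK-1 and ATF-7, 2 rose in oxygen and 0 fell (median 0.93), the C-type lectin gene clec-67 (6.82-fold) and the CUB-like gene dod-22 (3.12-fold). In skn-1 RNAi worms 4 rose against control, clec-67 (8.41-fold), the lysozyme gene lys-2 (3.99-fold), C17H12.8 (4.47-fold) and dod-22 (3.16-fold, named after its value was seen), and clec-85 fell (log2 −1.60, adjusted p = 0.0162).

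Of 7 genes of the DLK-1 and PMK-3 route to CEBP-1, 0 were called in oxygen by limma (3 at an unadjusted p under 0.05, median 0.67), and the kinase gene dlk-1 was called in the blocked fit (log2 0.91, adjusted p = 0.0366). Of 7 genes of the related KGB-1 kinase pathway, 1 rose (median 0.76). This was kgb-2, a close relative of kgb-1, with 139 ± 90.2 in oxygen worms and 11.5 ± 8.28 in control worms (log2 3.77 ± 0.70, adjusted p = 0.0143). kgb-1 itself differed by 1.16 ± 0.33 (adjusted p = 0.0921, blocked 0.0127). Among 3 tested genes linked to ZIP-10, 0 were called by limma (1 at an unadjusted p under 0.05, median 0.33), with srr-6 at log2 2.41 ± 0.63 (adjusted p = 0.0695, blocked 0.009).

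Of 16 other tested bZIP genes, 0 were called in oxygen by limma (3 at an unadjusted p under 0.05), and their median log2 change was 0.63. The blocked fit called 5 higher and 0 lower, against 7.39% and 1.86% of all tested probe sets. The 5 are named although they were chosen after their values were seen. These were atf-4 (log2 1.41) and xbp-1 (log2 1.37), which act in the integrated stress and endoplasmic reticulum responses, atfs-1 (log2 0.73) of the mitochondrial response, and the AP-1 genes fos-1 (log2 1.19) and jun-1 (log2 1.07). Of 9 mitochondrial stress genes 0 were called (2 at an unadjusted p under 0.05, median 0.12). For scale, 14 of 17 SKN-1 targets known from other work rose and 0 fell (median 2.54). Between skn-1 RNAi and oxygen 3 of 17 of those targets fell, gst-13, gst-38 and sdz-8 (median −0.85, against 0.19 over all genes, of which 0.0515% were called higher and 0.197% lower). Without the block no gene of the other lists named here was called in that comparison. The blocked fit called 6 of the 17 targets lower, and of the immune effectors irg-5 lower and lys-2 higher (log2 1.29, adjusted p = 0.0457). Over all tested probe sets it called 0.572% lower and 0.182% higher.

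**Figure D4:**
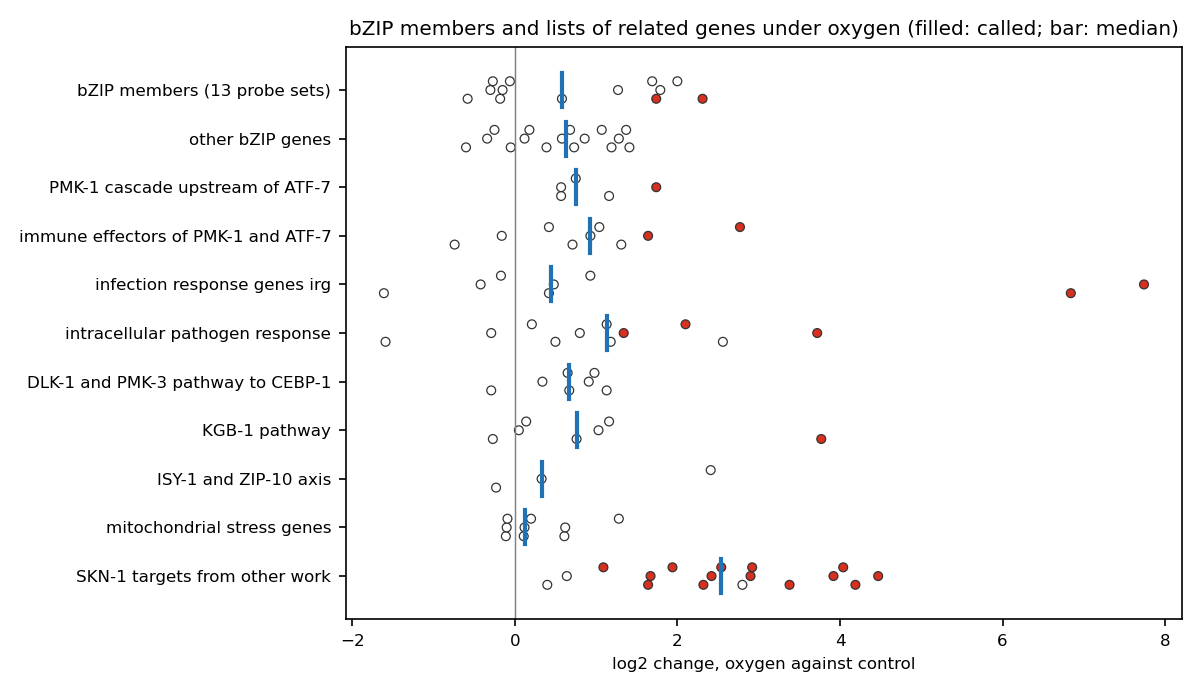
Log2 change between oxygen and control of each tested gene in the bZIP-related lists (horizontal axis), 1 row per list, with the 13 bZIP probe sets as a row of their own; filled points passed the threshold and bars are list medians. The SKN-1 targets have a median of 2.54, and the lists linked to bZIP factors have medians between 0.12 and 1.13.

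Over the 11 arrays, the genes whose centred log2 signals lay nearest to zip-2 were M01A8.1, the fatty acid amide hydrolase gene faah-2 and aex-3, with root mean square differences of 0.35, 0.38 and 0.38, where the median over genes was 1.33. faah-2 averaged 775 ± 312 in skn-1 RNAi worms, 938 ± 613 in oxygen worms and 143 ± 44.9 in control worms. Nearest to zip-10 were the nuclear receptor gene nhr-212, the sugar transporter gene swt-7 and F45D11.5 (0.29, 0.29 and 0.30, median 1.00). swt-7 averaged 1133 ± 338 in skn-1 RNAi worms, 1472 ± 436 in oxygen worms and 460 ± 126 in control worms. These arrays share group and set, so nearness describes them and nothing more.

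Markers of tissues were read beside these results. Summed signals of 15 neuron markers were 3812 to 5888 in oxygen worms and 2671 to 4182 in control worms (median log2 0.42, 0 called by limma and 3 at an unadjusted p under 0.05). Of 14 intestine markers 1 rose and 3 fell, with sums of 35838 to 46428 in oxygen worms and 33239 to 54024 in control worms. Sums of 10 body wall muscle markers were 13091 to 16314 in skn-1 RNAi worms, 6157 to 10906 in oxygen worms and 5625 to 10809 in control worms, with hlh-1 under the 40th percentile on all arrays. Sums of 13 germ line markers were 26030 to 27509 in skn-1 RNAi worms, 21483 to 26621 in oxygen worms and 26957 to 38260 in control worms, so oxygen and control did not overlap, and 1 of the 13 fell in oxygen (median log2 −0.40). Of 10 tested sperm markers and 7 epidermis markers 0 were called in oxygen by limma (1 of each at an unadjusted p under 0.05). Sums of 11 sperm markers varied widely within groups, with 8596 to 12090 in skn-1 RNAi worms, 1511 to 13112 in oxygen worms and 1103 to 10163 in control worms. Between skn-1 RNAi and control the median log2 difference of the sperm markers was 2.06, and 0.70 in the blocked fit, with 0 called by limma. The part of tissue make-up in the bZIP results was not tested.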

How the data were processed

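Transcripts of whole worms were measured on 11 Affymetrix C. elegans Genome Arrays, 1 per sample, from 10 µg of total RNA per the labels' protocols. Per the submitters' processing notes, MAS5 and GCOS 1.4 produced the deposited intensities, which are linear. The scaling target and genome build are not given in the sources used here, so no coordinates are printed. Array medians were 27.2 to 79.1 and total signals 6863652 to 9138002. Precision is limited by how few arrays there were. No label says that samples came from separate cultures, so p-values cover only sample-to-sample spread, which may be technical.

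Of 22625 probe sets, 77 controls were left out. The platform annotation gave 20766 probe sets 1 gene, 887 several and 895 none. Symbols were checked against a gene table of assembly WBcel235, which changed 0. Probe sets were tested where at least 3 arrays reached their own 40th percentile, which kept all 13 bZIP probe sets. zip-1 was kept only through oxygen and skn-1 RNAi arrays. The single zero (1 signal) was replaced by 0.1. limma 3.58.1 under R 4.3.3 fitted log2 signal on group over all 11 arrays (lmFit, then eBayes). Benjamini-Hochberg adjustment ran over all 15393 probe sets, with a two-sided threshold of 0.05, and the fit was tested on simulated data. Where a whole group lay under the percentile, it was set at that limit and a fold between geometric means is given against it. Such a fold is a lower bound only where the other group lay above its own limits. The 2 sets were read from the spike-in signals.

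Every bZIP probe set is reported. From each list up to 4 genes with the smallest adjusted p, and for each called bZIP gene the 3 most similar genes, are named; dlk-1, kgb-1, pals-6, srr-6 and other genes not called fall under the same rule. The members and the lists were chosen with earlier results of these data known. Other scalings, filters, blocks, a trend, an offset and leaving out each array were tried, and the set block with each array left out was added after seeing the data. Same-numbered oxygen and control arrays deviated together (correlations 0.45 to 0.57 over 4 pairs), as did other oxygen and control arrays of one set (0.35 to 0.53). The ranges overlapped, though 7 of the 8 arrays correlated best with the array of their own number. Pairing by number within a set was not tested. As every pair exceeded 0.1, that comparison is given with the replicate number as a block where a call changed. Pairs with skn-1 RNAi arrays had −0.13 to −0.01 and were not taken as pairs.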

Additional observations from a re-analysis of the deposited data

Results flagged for a closer look

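In the oxygen group, array 3 stood far from the others at the zip-8 probe set 171733_x_at, with a signal of 2608.3 against 959 to 1037.7 on the other 3 oxygen arrays. Its gap to the nearest array was 0.952 of the group's range. This was 1 of 26 groups of 4 arrays examined, and chance flags about 1 in 20. Without oxygen 3 the log2 difference between oxygen and control at this probe set was 0.92. At the second zip-8 probe set the same array was also the highest, at 1342.5. The cause was not tested.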

How the results depend on the processing

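The count of bZIP probe sets called changed with the number of arrays, the filter, the block and the offset. For oxygen against control, where 2 were called, there were 0 with no filter on dim probe sets, with set 1 alone and with the fit limited to the 2 groups, 1 with set 2 alone, and 4 with the set as a block, with the replicate block and on log2(signal + 16). Leaving out 1 array gave 0 to 3, and 2 to 6 together with the set block. zip-2 stayed at log2 1.95 to 2.62 and zip-10 at 1.38 to 2.03 over all planned settings, and zip-8 (187591_at) was called with the replicate block (adjusted p = 0.034) and, with the set block, without control 3 (0.0457). For skn-1 RNAi with oxygen against control, where 1 was called, there were 0 with no filter, 3 with the replicate block (zip-2, zip-1 at adjusted p = 0.0399 and zip-10 at 0.0231) and 2 with the offset of 16, and 0 to 3 with 1 array left out. The replicate block sets skn-1 RNAi arrays 1 and 2, of set 2, beside set 1 arrays, although such pairs did not deviate together. Its skn-1 RNAi values therefore mix in the set difference. That difference also enters its estimate of spread, and so its adjusted p-values for oxygen against control. With the set as a block zip-1 (adjusted p = 0.0554) and zip-10 (log2 0.98, adjusted p = 0.0762) were not called. Against oxygen the count was 0 in every setting run. Beyond the zip-1, zip-8 and zip-10 calls given here and above, the replicate block changed no bZIP call. Over all probe sets, the 590 calls in oxygen (507 higher, 83 lower) became 294 after median centring (221 higher, 73 lower), 1424 with the set block, 30 in set 1, 346 with the 2 groups and 330 to 1303 with arrays left out, with or without the set block. They became 395 with no filter, 422 in set 2, 658 with the replicate block and 671 with the offset. The 35 calls between skn-1 RNAi and oxygen became 60 after quantile normalization, 20 with no filter, 65 with a filter at the 60th percentile, 116 with the set block, 18 in set 2, 60 with a trend, 22 with the 2 groups, 66 with the offset and 16 to 57 with arrays left out. The 514 calls against control with skn-1 RNAi (383 higher, 131 lower) became 215 after centring (110 and 105), 262 with no filter, 1670 with the replicate block, 706 with the offset, 286 in set 2 and 1.2e+02 to 627 with arrays left out. After quantile normalization the split was 207 higher and 220 lower. Median centring lowered the median of all log2 changes by 0.37 for oxygen against control (shift −0.37), and shifted the other comparisons by −0.21 and −0.58.

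Sign changes occurred at values that passed in no setting. Oxygen against control turned to 0.03 (zip-11), 0.09 and 0.15 (atf-7 172407_x_at and 191216_s_at) in set 1. With arrays left out the ranges were −0.71 to 0.17 and −0.54 to 0.02 for zip-4, −0.06 to 1.36 for cebp-1, and −0.40 to 0.18, −0.29 to 0.02 and −0.24 to 0.14 for atf-7. Skn-1 RNAi against oxygen turned to −0.42 with the set block and −0.52 in set 2 (zip-2), 0.34 and 0.38 (zip-4 175396_s_at), and −0.54 and −0.29 (cebp-1). With the replicate block it turned to −0.01 (zip-1), −0.12 (zip-4 173891_s_at), −0.16 and −0.33 (zip-8). The zip-8 differences were also −0.01 and −0.04 after quantile normalization, −0.14 and −0.16 after centring, −0.28 and −0.10 in set 2, and −0.20 with the set block for 171733_x_at. With arrays left out they ranged over −0.06 to 0.42 and −0.15 to 0.36, zip-2 over −0.00 to 0.62, and zip-4 over −0.12 to 0.53 and −0.49 to 0.06. Skn-1 RNAi against control turned for zip-4 173891_s_at to −0.21, −0.52 and −0.39 with quantile normalization, centring and the replicate block (−0.39 to 0.24 with arrays left out), and for 175396_s_at to 0.04 with the set block. It turned for zip-11 to −0.33, −0.39 and −0.06 with quantile normalization, centring and set 2, and for cebp-1 to −0.22 in set 2. For atf-7 it turned to −0.01 and −0.13 with the set block and set 2 (172407_x_at), −0.07 with centring (173892_s_at), and −0.10 and −0.03 with centring and set 2 (191216_s_at). Apart from fewer arrays or a changed number of tests, the cause was not tested. The limits are 3 or 4 arrays a group, every skn-1 RNAi array in set 2, and dim signals for zip-1, zip-11 and cebp-1.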
